A study of Mus musculus with 4 samples.

Results

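The genes described here are the Wnt ligands, their Frizzled (Fzd) receptors, and 2 families of secreted antagonists, the Frizzled-related proteins (Sfrp) and the Dickkopf proteins (Dkk). They were taken by name: every gene called Wnt, Fzd, Sfrp or Dkk with a digit after it, without the antisense genes whose names end in os. This gave 37 members of 56748 genes, of which 19 were Wnt, 10 Fzd, 4 Sfrp and 4 Dkk genes. RNA was counted in single nuclei of the mouse hippocampus from 8 pools, each made of 3 male mice and carrying 1 condition. In the diet experiment, wild-type C57BL/6 mice ate vehicle chow or chow with PLX5622, an antagonist of the CSF1 receptor that depletes microglia, and were left as controls or exposed to repeated social defeat (RSD), in which an aggressor mouse was placed in the home cage on 6 nights (Con-Veh, Con-PLX, Stress-Veh, Stress-PLX). In the genotype experiment, mice with intact IL-1R1 and mice lacking it from glutamatergic neurons (nIL-1R1-/-), where Cre is driven by the Vglut2 (Slc17a6) promoter and also acts in descendants of such cells, were control (Con-IL-1R1+/+ and Con-nIL-1R1-/-) or stressed (Stress-IL-1R1+/+ as well as Stress-nIL-1R1-/-). Nuclei were collected 14 h after the last defeat. Because mice of a condition were pooled before counting, only the 4 pairs of control and stress pools replicate stress, and diet and genotype rest on 2 pools against 2.

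Wnt proteins are secreted, lipid-modified ligands that bind Frizzled receptors on the cell surface. With the co-receptors Lrp5 and Lrp6 they stabilize beta-catenin, which then works with TCF and LEF factors on target genes; with other co-receptors they act on the cytoskeleton and cell polarity. In the adult hippocampus the pathway is known for its part in neurogenesis, dendrite growth and synapse formation, and in brain vessels for building and keeping the blood-brain barrier. Sfrp proteins bind Wnt ligands outside the cell. Dkk1, Dkk2 and Dkk4 bind Lrp5 and Lrp6, whereas Dkk3 is a divergent member of its family.

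After removal of nuclei with over 20% mitochondrial transcripts, 56834 of 57350 nuclei remained, with 5858 to 8474 per pool and no barcode shared between pools. Median unique transcripts (UMIs) per nucleus ranged from 598 in Con-PLX and 628 in Stress-PLX to 5012 in Con-nIL-1R1-/-, so both PLX5622 pools are shallow. Il1r1, the deleted gene, was counted in dentate granule (DG-like) nuclei at 85.5, 89.5, 70.8 and 57.8 CPM, the UMIs of a gene per 1000000 UMIs of the class and pool, in Con-Veh, Con-PLX, Stress-Veh and Stress-PLX, at 61.9 and 29.6 in Con-IL-1R1+/+ and Stress-IL-1R1+/+, and at 11.4 and 9.16 in Con-nIL-1R1-/- and Stress-nIL-1R1-/-. Both nIL-1R1-/- pools lay below all others. Microglia-like nuclei numbered 10 in each PLX5622 pool and 151 to 203 in the other pools. Clusters were named from markers, with members and pathway genes kept out of clustering, and clusters without a clear name are called by their leading gene. Some classes were spread unevenly over the pools: 1545 of 1920 Ebf2-led nuclei came from Con-IL-1R1+/+, 286 of 312 medium spiny-like nuclei from Stress-IL-1R1+/+ and 96 of 153 cerebellar granule-like nuclei from Stress-nIL-1R1-/-. Igfn1-led nuclei ranged from 38 in Con-IL-1R1+/+ to 781 in Stress-Veh, and Synpo2-led nuclei from 1 in Con-nIL-1R1-/- to 243 in Con-PLX.

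The 37 members together held 37685 UMIs, and Dkk3 alone held 46.4% of them. By family the counts were 12038 UMIs for Wnt, 6781 for Fzd, 436 for Sfrp and 18430 for Dkk genes. Counts of different genes are not levels, since longer transcripts can give more UMIs in nuclei. In all, 22 members had at least 50 UMIs in named classes. Dkk3 had 17493 UMIs, Fzd3 5846, Wnt5b 2999, Wnt7b 2219, Wnt2 1561 and Wnt4 1363. Wnt5a, Wnt9a, Dkk2 and Wnt7a had 894 to 981 each, and Fzd6, Wnt3 and Sfrp4 had 477, 354 and 253. Wnt2b, Fzd4, Sfrp1, Wnt10a, Fzd8, Wnt11, Fzd1, Wnt3a and Wnt16 had 64 to 196. Wnt6, Wnt9b, Wnt10b, Fzd7, Fzd5, Sfrp2, Fzd2, Wnt8b and Wnt8a had 13 to 62, and Sfrp5, Wnt1, Fzd9, Dkk4, Dkk1 and Fzd10 had 10 or fewer. Dkk1, the Lrp6 antagonist, had 4 UMIs in the whole series, so neither its cell type nor a change with stress could be read at this depth.

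**Figure D1:**
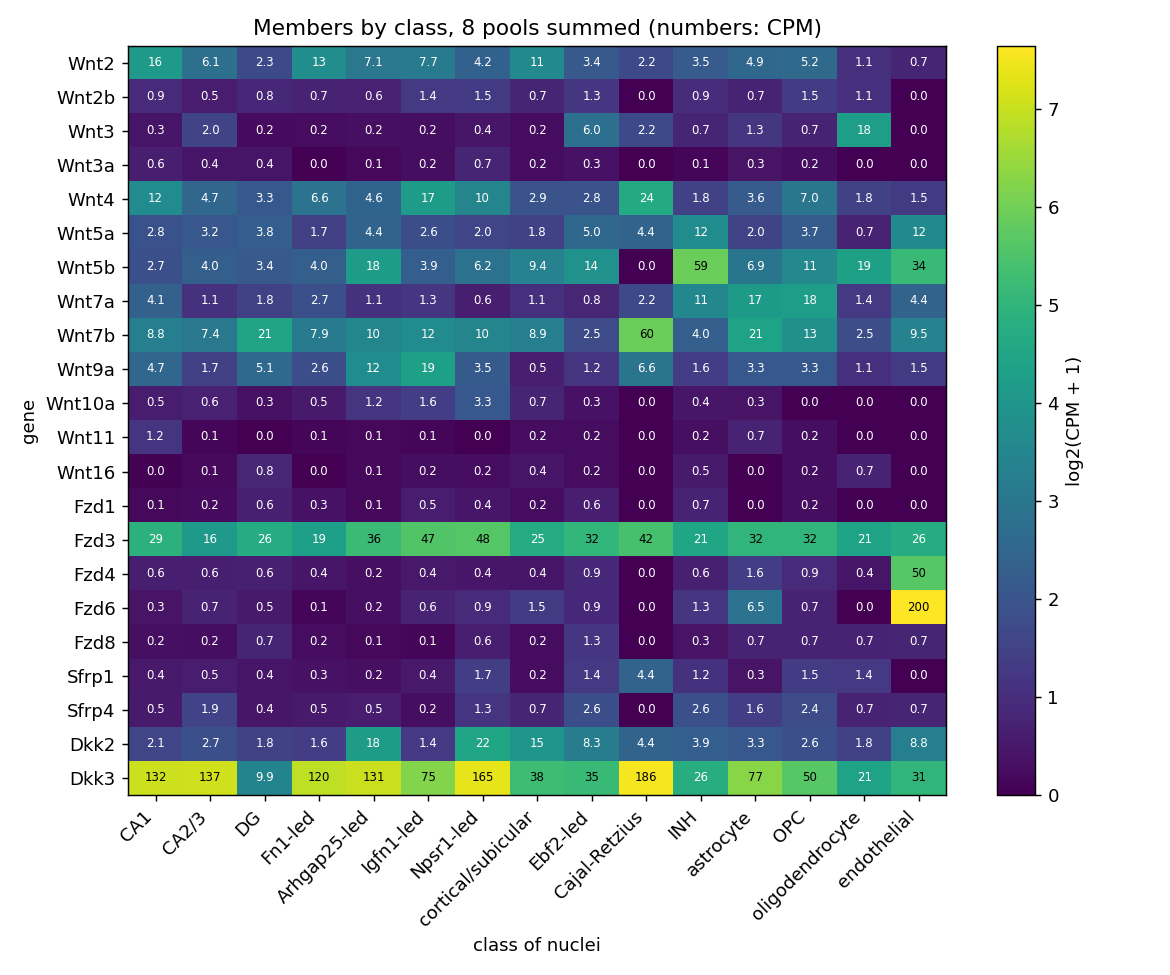
Level of the 22 members with at least 50 UMIs (rows) in 15 classes of nuclei (columns), with the 8 pools summed; colour is log2(CPM + 1) and the number in each cell is CPM. Dkk3 is high in CA1-like and CA2/3-like nuclei and low in DG-like and INH-like nuclei, Wnt5b is highest in INH-like nuclei, and Fzd4 and Fzd6 are highest in endothelial-like nuclei.

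Among receptors, Fzd6 and Fzd4 were highest in endothelial-like nuclei and Fzd3 was spread over all classes. Fzd6 (chromosome 15, 38869243 to 38901584 of GRCm39, plus strand) is known for its part in planar cell polarity. In endothelial-like nuclei it stood at 316 CPM in Con-Veh, 128 in Con-PLX, 245 in Stress-Veh, 242 in Stress-PLX, 253 in Con-IL-1R1+/+ with 153 in its stress pool, and 158 in Con-nIL-1R1-/- with 206 in its stress pool. Over the summed pools the level was 199.6 CPM (95% Poisson interval 177 to 225, counting error only), and the next of the 15 classes compared (those with at least 100 nuclei in all and 20 nuclei in each of 7 or more pools) was astrocyte-like at 6.53 CPM (3.99 to 10.1). In each of the 8 pools the endothelial-like level was the highest, with no overlap with astrocyte-like nuclei, which reached at most 14.5 CPM. With every nucleus thinned to 500 UMIs, 12.8% of 327 endothelial-like nuclei held a Fzd6 UMI (exact 95% interval 9.42% to 17.0%), against 0.022% of 8914 DG-like nuclei; without thinning the shares were 38.7% and 0.115%. Median depths per pool ran from 413.5 to 3779 UMIs in endothelial-like and from 549 to 3381.5 in DG-like nuclei.

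Fzd4 (chromosome 7, 89053563 to 89062342, plus strand), the receptor for norrin in retinal and brain vessels, followed the same classes. It stood at 49.7 CPM in endothelial-like nuclei (38.6 to 63.0) and at 1.63 CPM in astrocyte-like nuclei, the next class, and was highest in endothelial-like nuclei in 8 of 8 pools. The other 7 pools held 29.6 to 76.5 CPM, while Con-PLX, with 20 endothelial-like nuclei, held 191 on only 3 UMIs. The class also carried markers of mural cells, whose 5 markers summed to 690 to 1423 CPM against 4162 to 9936 CPM for the 5 endothelial markers, and the part of mural cells in these Frizzled levels was not tested. In 139 vascular leptomeningeal-like nuclei Fzd6 was at 82.0 CPM, and in the 2 pools with at least 20 of them it was at 182 CPM in Stress-Veh and 204 CPM in Stress-PLX, near the endothelial-like values there.

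Fzd3 (chromosome 14, 65429573 to 65499933, minus strand), which guides axons and dendrites, was counted in every class compared. Its level ran from 16.3 CPM in CA2/3-like to 48.1 CPM in Npsr1-led nuclei, an excitatory class called by its leading gene. In Npsr1-led nuclei the pools gave 57.7, 51.5, 49.5 and 34.1 CPM in Con-Veh, Con-PLX, Stress-Veh and Stress-PLX, against 52.3 and 46.4 in control and stress IL-1R1+/+ pools and 39.0 and 54.2 in control and stress nIL-1R1-/- pools. Igfn1-led nuclei, at 46.9 CPM with pools from 24.7 to 68.0, overlapped this range. The highest value of all was in 114 ependymal-like nuclei, at 216 CPM (173 to 266), a class with 5 to 31 nuclei per pool that was not compared. Its 4 choroid plexus markers summed to 1993 CPM in Con-IL-1R1+/+ and to at most 177 CPM in the other pools. The 7 other Frizzled genes had 96 UMIs or fewer each.

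**Figure D2:**
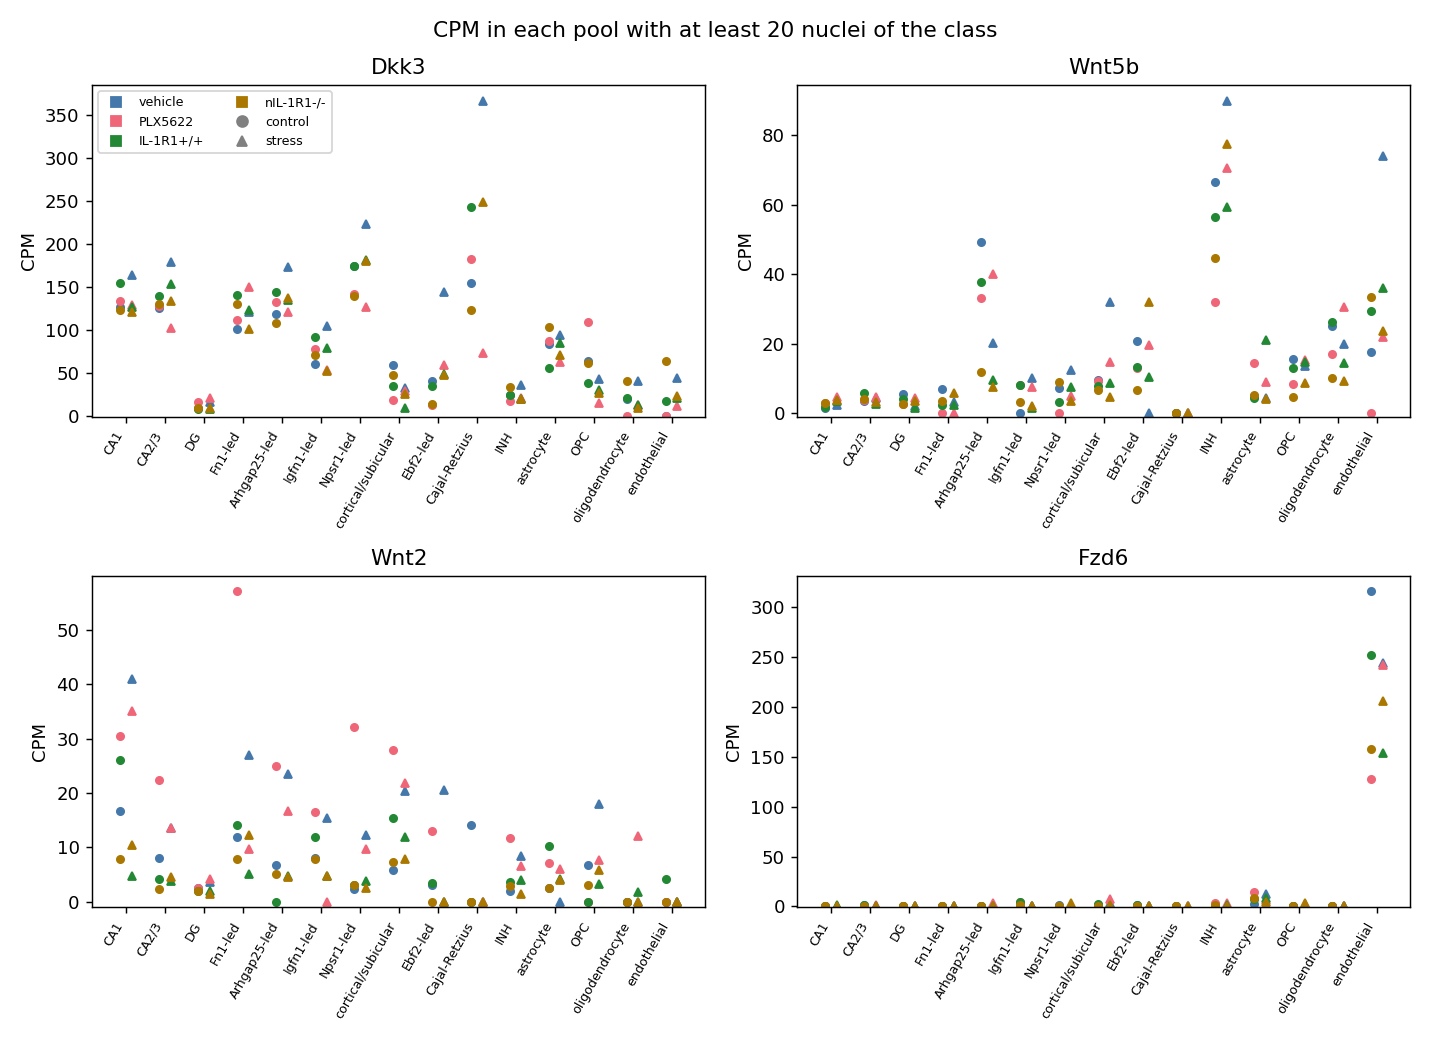
CPM of Dkk3, Wnt5b, Wnt2 and Fzd6 (one panel each) in each pool that held at least 20 nuclei of a class; circles are control and triangles stress pools, and colours give the diet or genotype. Fzd6 is highest in the endothelial-like class of the 15 classes drawn, which do not include vascular leptomeningeal-like nuclei, and Wnt2 is spread widely between pools within CA1-like nuclei.

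Dkk3 divided the principal neurons of the hippocampus. It lies on chromosome 7, 111712904 to 111758760, on the minus strand, and no annotated gene overlaps it. In CA1-like nuclei it stood at 132 CPM (128 to 136) and in CA2/3-like nuclei at 137 CPM (132 to 141), and the pools of the 2 classes overlapped, from 120 to 164 and from 103 to 179 CPM. In DG-like nuclei the same gene stood at 9.95 CPM, with pools from 7.62 to 20.4, and in INH-like nuclei, the inhibitory neurons, at 26.4 CPM, with pools from 17.7 to 36.2. Every CA1-like and CA2/3-like pool therefore lay above every DG-like and INH-like pool. Npsr1-led nuclei were at 165 CPM and Fn1-led and Arhgap25-led nuclei at 120 and 131 CPM, while 3 other excitatory classes were lower, with 74.6 CPM in Igfn1-led, 38.0 in cortical and subicular excitatory-like and 35.2 in Ebf2-led nuclei. Glia overlapped these, with 77.4 CPM in astrocyte-like, 75.4 in microglia-like, 49.9 in oligodendrocyte precursor-like and 20.6 in oligodendrocyte-like nuclei. Microglia-like nuclei numbered 1092, but at Leiden resolution 2.0 only 369 nuclei were so named. A cluster of 737 nuclei led by microglia genes then fell among the neurons and stayed unnamed. The part of neuronal RNA in the microglia-like Dkk3 value was not tested. Dkk2, which acts on Lrp5 and Lrp6, had another pattern: 21.8 CPM in Npsr1-led, 17.7 in Arhgap25-led and 15.3 in cortical and subicular excitatory-like nuclei, but 2.06 in CA1-like and 2.65 in CA2/3-like nuclei.

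The ligands differed in the classes where they were highest. Wnt5b and Wnt5a, ligands best known for signalling without beta-catenin, were both highest in INH-like nuclei among the classes compared. Wnt5b (chromosome 6, 119409323 to 119521897, minus strand) was at 59.4 CPM there (56.6 to 62.3), at 34.4 CPM in endothelial-like nuclei (25.3 to 45.7), and between 2.68 and 4.02 CPM in CA1-like, CA2/3-like, DG-like, Fn1-led and Igfn1-led nuclei; INH-like nuclei were highest in 7 of 8 pools. Wnt5a was at 12.3 CPM in INH-like nuclei, where the pools gave 11.8, 14.2, 14.9 and 12.1 CPM in Con-Veh, Con-PLX, Stress-Veh and Stress-PLX against 12.7 and 9.60 in control and stress IL-1R1+/+ pools and 12.4 and 13.5 in control and stress nIL-1R1-/- pools. This was a narrow spread, but endothelial-like nuclei at 11.7 CPM, with pools from 0 to 37.1, overlapped it. Sfrp4, the Sfrp gene with most UMIs, was also highest in INH-like nuclei, at 2.63 CPM, close to the 2.56 CPM of Ebf2-led nuclei.

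Wnt2, a ligand known from dendrites of cultured hippocampal neurons, was highest in CA1-like nuclei at 16.4 CPM (15.0 to 17.9). Its pools were far apart: 16.7 CPM in Con-Veh, 30.6 in Con-PLX, 41.0 in Stress-Veh, 35.1 in Stress-PLX, 26.1 in Con-IL-1R1+/+ with 4.72 in its stress pool, and 7.90 in Con-nIL-1R1-/- with 10.5 in its stress pool. The 3 lowest pools were the nIL-1R1-/- pools and Stress-IL-1R1+/+, and all 3 lay below the 4 pools of the diet experiment. CA1-like nuclei were the highest class for Wnt2 in only 4 of 8 pools, with Fn1-led nuclei next at 12.5 CPM. At Leiden 2.0 Fn1-led nuclei were highest, at 20.2 against 15.5 CPM in CA1-like nuclei. With nuclei thinned to 500 UMIs cortical and subicular excitatory-like nuclei were highest, at 17.6 against 16.4 CPM. Wnt4 was at 11.8 CPM in CA1-like and 17.3 CPM in Igfn1-led nuclei, against 3.29 in DG-like nuclei. Wnt9a was at 18.8 CPM in Igfn1-led nuclei, with pools from 7.61 to 24.7, and this class was the highest in 7 of 8 pools, next to 12.1 CPM in Arhgap25-led nuclei.

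Wnt7a and Wnt7b, the ligands that drive vessel growth and barrier formation in the central nervous system, were shared between glia and neurons. Wnt7b was at 21.0 CPM in DG-like nuclei, with pools from 13.5 to 29.8, and at 20.6 CPM in astrocyte-like nuclei, with pools from 4.21 to 47.2, so these 2 classes did not differ beyond the spread of the pools. Wnt7a was at 18.2 CPM in oligodendrocyte precursor-like, 17.0 in astrocyte-like and 10.8 in INH-like nuclei. Wnt3, a ligand tied to adult neurogenesis, was at 18.1 CPM in oligodendrocyte-like nuclei, where the pools ran from 9.99 to 34.1. Synpo2-led nuclei, a class not compared, had 4 pools with at least 20 of them. Wnt3 there was at 35.8 CPM in Con-Veh, 42.2 in Con-PLX (15 UMIs), 116.1 in Stress-PLX (only 8 UMIs) and 20.4 in Con-IL-1R1+/+. All but the last lie above the oligodendrocyte-like range, and the last lies inside it. In Cajal-Retzius-like nuclei, 215 in all, Wnt7b reached 59.7 CPM (39.3 to 86.8) on 27 UMIs and Dkk3 186 CPM on 84 UMIs. AU022754, which overlaps Wnt7b on the other strand, had 17 UMIs in the same nuclei, and whether the genes share reads is not known. Only 4 members kept 1 class as the highest in at least 7 of 8 pools: Wnt5b, Wnt9a, Fzd4 and Fzd6, of 22 compared over 15 classes.

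Whether RSD changed the members was tested with edgeR's quasi-likelihood test on UMIs summed per pool and class, with the pair of pools as a block and Benjamini-Hochberg adjustment over all genes of the class. In all, 14 members passed the filter on low counts in at least 1 of the 14 classes tested, which gave 69 tests of a member in a class; the other 23 were too sparse in all classes. None of the 69 passed an adjusted p of 0.05 for stress, against 234 of 114295 tests of all genes (0.205%). At an unadjusted p under 0.05 there were 7 of 69 members' tests (10.1%), beside 10% of all tests, and DESeq2 gave 0 and 4. Of the 69 log2 fold changes, 32 were above 0 and 37 below, with a median of -0.01, and their median size of 0.23 was close to the 0.20 of all genes. Fzd3 in CA1-like nuclei was at 27.9 ± 3.14 CPM in control and 28.2 ± 1.67 CPM in stress pools (SD, n = 4), over clusters whose shares moved: the vehicle pair went from 841 to 357 nuclei in the deeper and from 361 to 1086 in the shallower Fibcd1-led cluster. In INH-like nuclei Fzd3 was at 23.1 ± 3.03 CPM in control and 17.8 ± 4.55 CPM in stress pools, and Wnt7a at 12.1 ± 1.53 and 8.999 ± 1.18 CPM. Neither passed the test (log2 fold changes -0.25 ± 0.19 and -0.36 ± 0.21, adjusted p = 0.743 and 0.680 by edgeR). The log2 stress ratio of Fzd3 was -0.04, -1.30, -0.02 and -0.28 in the vehicle, PLX5622, IL-1R1+/+ and nIL-1R1-/- pairs. Dkk3 in CA1-like nuclei was at 134 ± 13.9 CPM in control and 135 ± 19.8 CPM in stress pools.

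**Figure D3:**
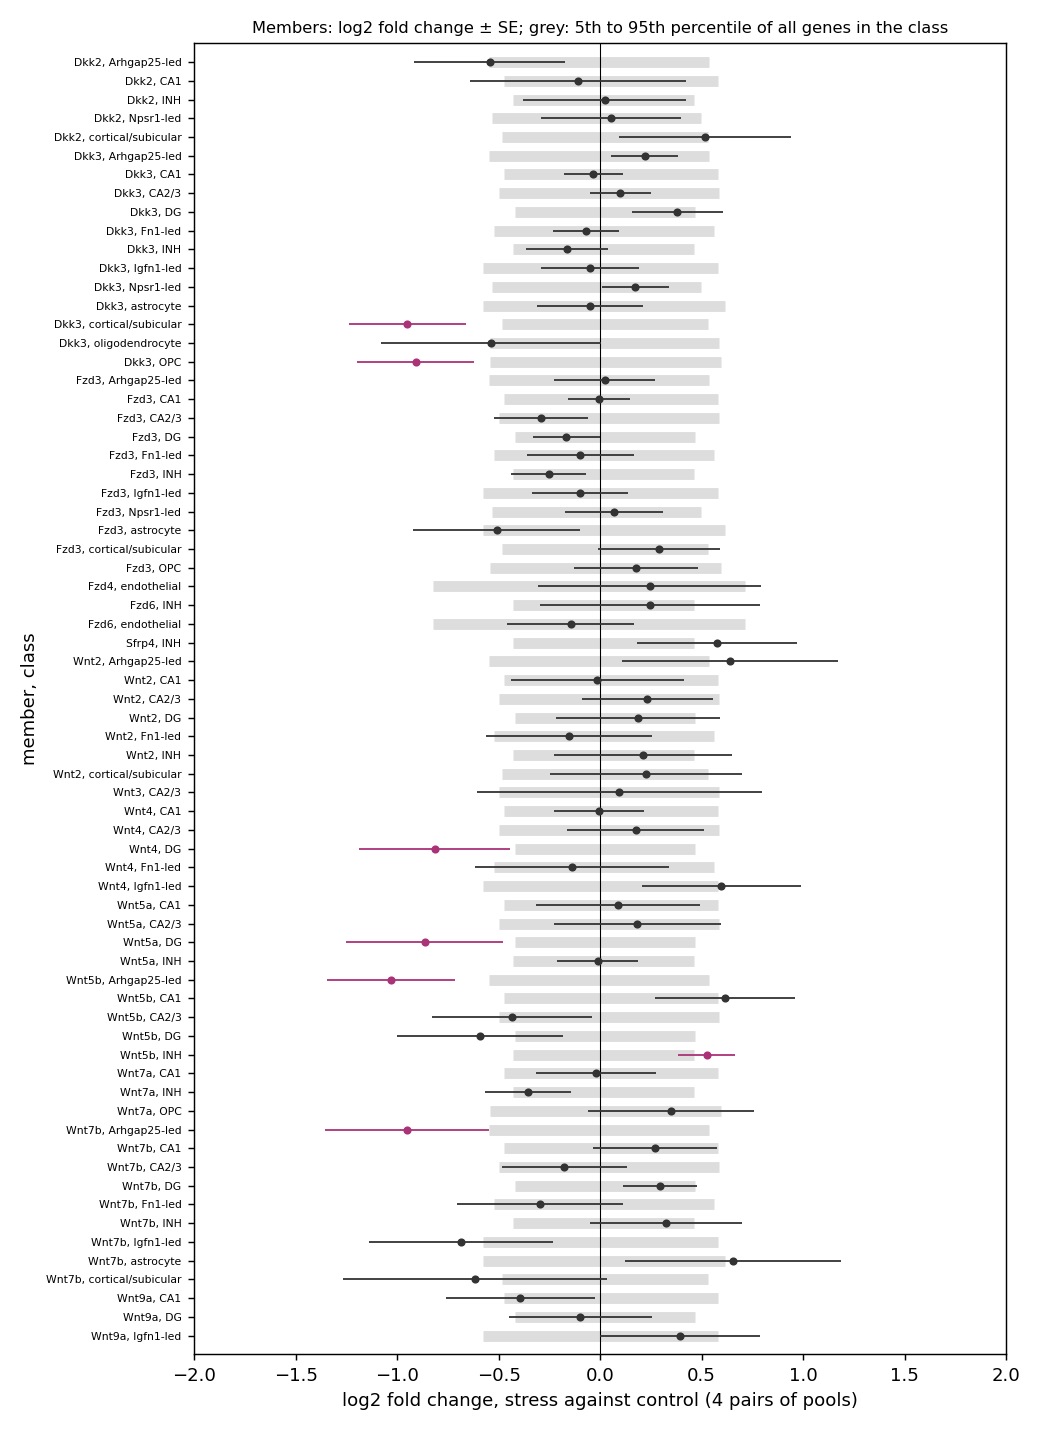
Log2 fold change of stress against control, with its standard error, for the 69 tests of a member in a class (rows, by gene); grey bars span the 5th to 95th percentile of all genes tested in that class, and purple marks the 7 tests with an unadjusted p under 0.05. No test passed after adjustment, and most points lie inside the grey bars.

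The smallest p-values among members belonged to Wnt5b and Dkk3. Wnt5b in INH-like nuclei had 66.4, 31.9, 56.5 and 44.6 CPM in Con-Veh, Con-PLX, Con-IL-1R1+/+ and Con-nIL-1R1-/-, and 90.0, 70.5, 59.2 and 77.6 CPM in the stress pools in the same order. The value was higher under stress in 4 of 4 pairs, although the groups overlapped, with a log2 fold change of 0.52 ± 0.14 (SE) and an adjusted p of 0.287 (unadjusted 0.0016). In Arhgap25-led nuclei Wnt5b pointed the other way, with a log2 fold change of -1.03 ± 0.32 and an adjusted p of 0.132, and without the PLX5622 pair its adjusted p was 0.0416 at -1.28. There the 3 lowest pools, Con-nIL-1R1-/- and both stress pools of the genotype experiment at 11.98, 9.46 and 7.53 CPM, were all from that experiment. Dkk3 had a log2 fold change of -0.91 ± 0.29 in oligodendrocyte precursor-like nuclei (adjusted p = 0.265) and of -0.95 ± 0.29 in cortical and subicular excitatory-like nuclei (adjusted p = 0.311), both by edgeR.

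The INH-like class held 3 clusters, and testing the clusters of the 4 hippocampal neuron classes one by one, a step added after the data were seen, found 1 member call. Wnt5b rose with stress in the Vip-led cluster, the nuclei with Vip and Adarb2, markers of interneurons from the caudal ganglionic eminence. Its level was 88.4, 62.7, 75.9 and 57.1 CPM in Con-Veh, Con-PLX, Con-IL-1R1+/+ and Con-nIL-1R1-/-, and 171, 146, 101 and 161 CPM in the stress pools in the same order. All 4 stress pools were above all 4 control pools (145 ± 30.7 against 71.0 ± 14.0 CPM, SD, n = 4). The log2 fold change was 1.02 ± 0.16, with an adjusted p of 0.00445 by edgeR over the 9186 genes of the cluster, of which 13 (0.142%) passed. Over the 9 clusters tested, 1 of 36 tests of a member in a cluster passed, against 0.655% of tests of all genes, and the p-value is not adjusted for the choice of clusters. The call did not hold with DESeq2 (adjusted p = 0.0749), without the nIL-1R1-/- pair (0.0888), without the replicate block (0.0853), in the diet experiment alone (0.336) or with nuclei thinned to 500 UMIs (0.515), where the log2 fold changes were 0.76 to 1.01.

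In the Gna14-led cluster, INH-like nuclei led by genes that include Lhx6 and Pvalb, the groups overlapped, at 47.1 ± 17.5 CPM in control and 50.3 ± 10.3 CPM in stress pools (log2 fold change -0.02 ± 0.16, adjusted p = 0.989 by edgeR), although the PLX5622 pair went from 23.5 to 47.1 CPM. The stress ratio in the Vip-led cluster was above that in the Gna14-led cluster in 4 of 4 pairs, by 0.85 ± 0.57 on the log2 scale (SD). The exact permutation p was 0.125, the smallest that 4 pairs allow. Because the Vip-led cluster was picked on these same Wnt5b values, this comparison cannot decide whether the clusters differ. In the Hapln1-led cluster Wnt5b did not pass the filter on low counts. The Vip-led cluster made up 26.0% to 30.4% of INH-like nuclei in every pool. Stress-Veh, Stress-PLX, Stress-IL-1R1+/+ and Stress-nIL-1R1-/- held 189, 178, 181 and 220 Vip-led nuclei, of which 38, 21, 45 and 65 had a Wnt5b UMI. The most in 1 nucleus was 15, 10, 18 and 13 of 94, 36, 120 and 179 UMIs. These shares were 20.1%, 11.8%, 24.9% and 29.55%, against 19.3%, 4.82%, 22.4% and 29.2% in their control pools. With nuclei thinned to 500 UMIs they were 9.64%, 4.0%, 6.21% and 9.63% against 5.3%, 3.31%, 6.8% and 6.17%. Vip itself was at 11.8 to 72.8 CPM in control and 64.9 to 128 CPM in stress pools, higher in 3 of 4 pairs, and Adarb2, at 12380 to 19788 CPM, was higher in 3 of 4. Npas1 was also higher in 3 of 4 pairs, Calb2 and Cck in 2 of 4, and Cnr1 and Lamp5 in 1 of 4. Sst and Pvalb were at 3.92 CPM or less, and Lhx6 at 3.02 CPM or less apart from 8.12 CPM in Stress-PLX. The part of these shifts in the Wnt5b value was not tested. Fbxl14, which overlaps Wnt5b on the other strand, held at most 3.37 CPM in these pools; Gm30690 and Gm40397 on the other strand and Gm68838 on the same strand also overlap it.

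**Figure D4:**
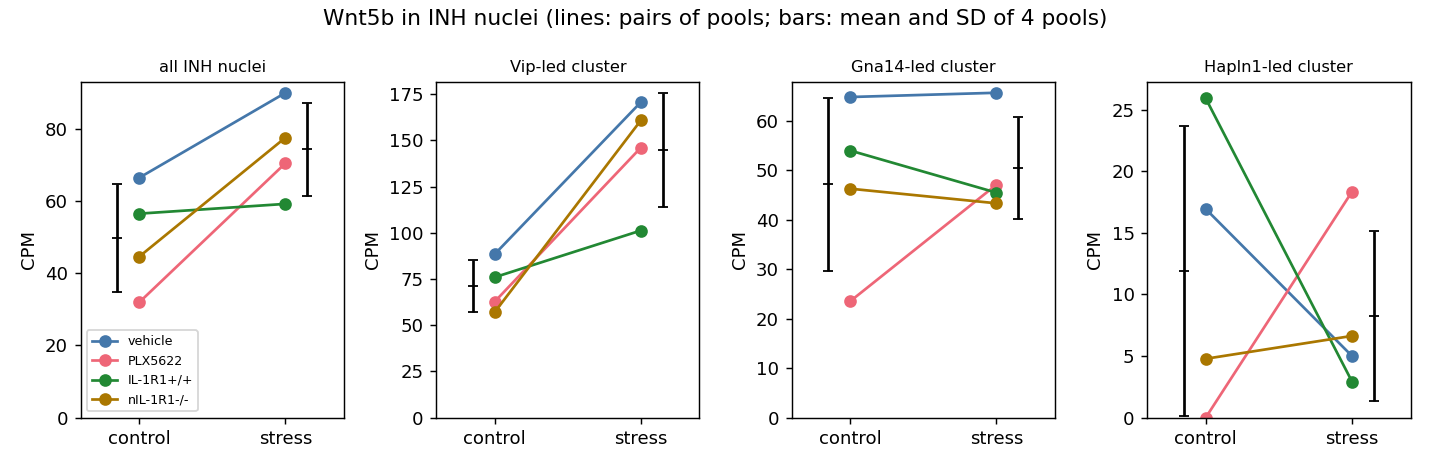
Wnt5b in CPM in control and stress pools of all INH-like nuclei and of their 3 clusters; each line joins the 2 pools of a diet or genotype, and bars give the mean and SD of 4 pools. In the Vip-led cluster the stress pools lie between 101 and 171 CPM and the control pools between 57.1 and 88.4 CPM; in the Gna14-led cluster the groups overlap.

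The PLX5622 diet, which removed nearly all microglia-like nuclei, was compared with vehicle in the same fit. None of 69 tests of a member passed (47 of 114295 tests of all genes did, 0.0411%), and 3 had an unadjusted p under 0.05, beside 5.12% of all tests, with 0 and 3 by DESeq2. The 3 were Wnt5a in CA2/3-like (log2 fold change 2.06 ± 0.78), Wnt5b in INH-like (-0.58 ± 0.23) and Wnt2 in Fn1-led nuclei (1.27 ± 0.61), with adjusted p-values of 0.941 to 0.997 by edgeR. The median standard error of a member's log2 fold change was 0.60, and a value of about 2 of these standard errors, as for Wnt2, did not pass.

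Deletion of Il1r1 from glutamatergic neurons was compared with IL-1R1+/+ in the same way. None of 69 tests of a member passed (126 of 114295 of all genes, 0.11%), and 4 had an unadjusted p under 0.05, beside 2.95% of all tests, while DESeq2 gave 0 and 0. Wnt2 in CA1-like nuclei had a log2 fold change of -0.86 ± 0.58 (unadjusted p = 0.165 by edgeR's fit across genes). The value depended on Stress-IL-1R1+/+, whose 4.72 CPM was the lowest of all. Without that pool it was larger, at -1.83, but Con-IL-1R1+/+ was then the only IL-1R1+/+ pool behind it. Dkk3 in cortical and subicular excitatory-like nuclei (0.72 ± 0.35) and Fzd3 in Igfn1-led nuclei (-0.61 ± 0.28) were among the 4, with adjusted p-values near 1.

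Whether the stress difference depended on neuronal IL-1R1, the question of the study, was asked with an interaction term, which leaves 1 residual degree of freedom. In this model the vehicle and IL-1R1+/+ pairs shared 1 stress effect. The nIL-1R1-/- pair (genotype) and the PLX5622 pair (diet) were each compared with that shared effect, not with their own reference pair alone. None of 84 tests of 16 members passed for genotype (166 of 128807 of all genes, 0.129%) or for diet (124 of 128807, 0.0963%), with 7 and 7 at an unadjusted p under 0.05, beside 5.11% and 7.25% of all tests, and DESeq2 gave 0 and 0 at both levels. The median standard errors of the members' tests were 0.81 and 1.247 on the log2 scale. A test at these medians could have found only a large difference between the stress effects. Standard errors varied between genes, so the limit was not the same for every member. In the Vip-led cluster, the Wnt5b stress difference in nIL-1R1-/- pools was 0.78 ± 0.32 above the shared effect on the log2 scale (adjusted p = 0.852 by edgeR). The log2 stress ratio there was 1.495 in the nIL-1R1-/- pair, 0.415 in the IL-1R1+/+ pair and 0.949 in the vehicle pair.

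Other genes of the pathway were counted from a list of 8 sets. For stress, 4 of 558 tests of 58 genes passed, 2 higher and 2 lower, beside 0.205% of all tests. At an unadjusted p under 0.05 by edgeR there were 75, beside 10% of all tests. For diet none of 558 passed, and 30 had an unadjusted p under 0.05, beside 5.12% of all tests. For genotype 1 of 558 passed, beside 0.11% of all tests. The interaction with genotype had 1 of 609, beside 0.129%, and that with diet 0 of 609, beside 0.0963%. Rspo2, an R-spondin, a secreted protein that strengthens Wnt signals by protecting Frizzled receptors from degradation, fell in 2 excitatory classes. In Arhgap25-led nuclei it was at 114, 74.8, 162 and 98.4 CPM in Con-Veh, Con-PLX, Con-IL-1R1+/+ and Con-nIL-1R1-/-, and at 28.6, 20.1, 54.9 and 60.2 CPM in the stress pools in the same order. The groups did not overlap, and the log2 fold change was -1.32 ± 0.21 with an adjusted p of 0.0012 by edgeR. In Igfn1-led nuclei Rspo2 was at 40.2, 70.0, 100.04 and 109.1 CPM in control and at 13.3, 38.0, 42.2 and 44.7 CPM in stress pools, the Stress-PLX value on 5 UMIs. It was lower in 4 of 4 pairs although the groups overlapped, with a log2 fold change of -1.32 ± 0.22 (adjusted p = 0.0146 by edgeR). This call was lost in 4 of 13 alternatives. They were without the nIL-1R1-/- pair (0.196), without the replicate block (0.39), and the diet (0.332) or genotype experiment alone (0.081). The numbers of nuclei in these classes also differed between control and stress pools. Igfn1-led nuclei went from 119 to 781, 202 to 96, 38 to 490 and 66 to 488 in the vehicle, PLX5622, IL-1R1+/+ and nIL-1R1-/- pairs. Arhgap25-led nuclei went from 257 to 281, 283 to 266, 105 to 391 and 286 to 485 in the same order. The part of these shifts in the Rspo2 values, and in the Ptk7 values of Arhgap25-led nuclei below, was not tested. The other 51 tests of R-spondins and their receptors did not pass.

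Ptk7, a co-receptor in planar polarity, rose in Arhgap25-led nuclei, from 29.7, 41.5, 42.4 and 44.1 CPM in control to 109, 66.9, 87.0 and 77.3 CPM in stress pools (log2 fold change 1.13 ± 0.21, adjusted p = 0.0065 by edgeR). Every stress pool was above every control pool, but the adjusted p was 0.155 without the vehicle pair and 0.061 without the nIL-1R1-/- pair. Its call was also lost in the diet experiment alone (0.363) and with nuclei thinned to 500 UMIs (0.498, log2 fold change 0.83). Daam2, a formin that binds Dishevelled, rose in astrocyte-like nuclei, from 419, 565, 344 and 277 CPM in control to 677, 774, 581 and 545 CPM in stress pools, higher in 4 of 4 pairs (0.68 ± 0.17, adjusted p = 0.0259 by edgeR). It lost the call in 9 of 14 alternatives, among them leaving out the vehicle, IL-1R1+/+ or nIL-1R1-/- pair (adjusted p = 0.258, 0.15 and 0.184), and with nuclei thinned to 500 UMIs its log2 fold change was 0.13. Axin2 and the other feedback targets had 25 tests, none of which passed for stress at an adjusted or an unadjusted p of 0.05 by edgeR. At the unadjusted level 10% of all tests passed. Planar polarity genes had 23 of 88, R-spondins and their receptors 11 of 53, co-receptors 12 of 76 and ligand secretion 4 of 22. Cytoplasmic transducers had 15 of 180, nuclear factors 8 of 88 and other secreted antagonists 2 of 26. Whether a set differed from all genes was not tested.

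**Figure D5:**
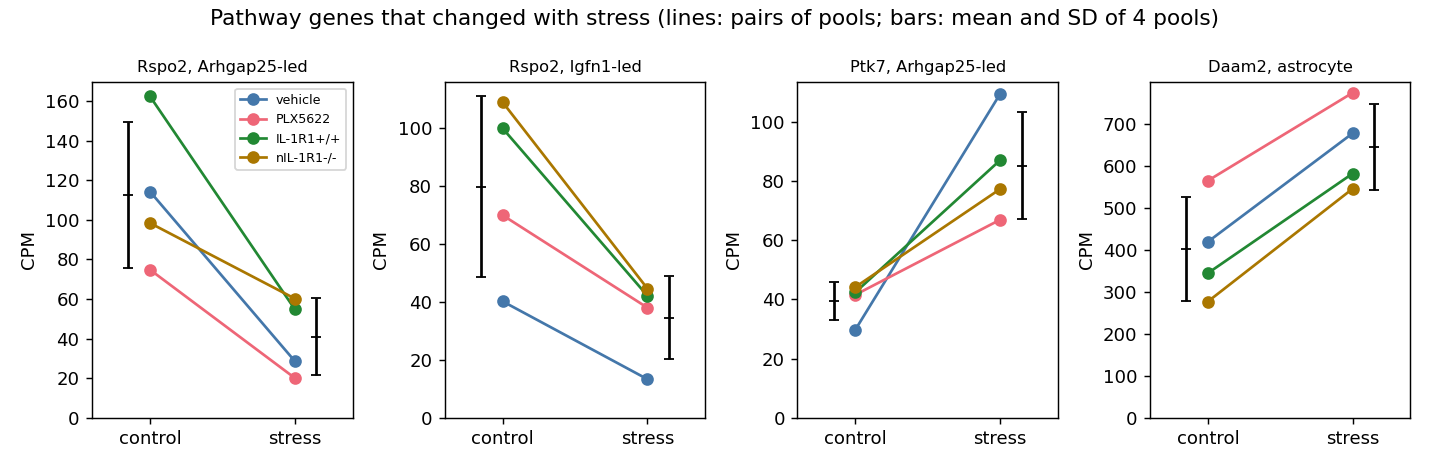
CPM of Rspo2 in Arhgap25-led and Igfn1-led nuclei, Ptk7 in Arhgap25-led nuclei and Daam2 in astrocyte-like nuclei; each line joins the control and stress pools of a diet or genotype, and bars give the mean and SD of 4 pools. Rspo2 lies lower and Ptk7 and Daam2 lie higher under stress in 4 of 4 pairs.

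Ror1, a receptor for Wnt5a, was the gene called for the interaction with genotype. In cortical and subicular excitatory-like nuclei it was at 204 CPM in both Con-IL-1R1+/+ and Stress-IL-1R1+/+, and at 249.9 CPM in Con-nIL-1R1-/- and 109.5 CPM in Stress-nIL-1R1-/-. The level was also lower under stress in the PLX5622 pair, whose mice have intact IL-1R1, at 255 CPM in Con-PLX (55 UMIs) and 157 CPM in Stress-PLX (43 UMIs). The vehicle pair, which shares the reference stress effect with the IL-1R1+/+ pair, went from 223 CPM in Con-Veh to 282 CPM in Stress-Veh. Against that shared effect, the log2 fold change in nIL-1R1-/- pools differed by -1.36 ± 0.31 (adjusted p = 0.0125 by edgeR). Each of these arms is 1 pool, and the call was lost in 4 of 7 alternatives: with DESeq2 (adjusted p = 1), without the filter (0.0996), with nuclei thinned to 500 UMIs (0.887) and at Leiden 2.0 (0.995). Tcf7l2, a TCF factor that is also abundant in thalamic neurons, was called lower in nIL-1R1-/- than IL-1R1+/+ pools of Ebf2-led nuclei (adjusted p = 0.0116 by edgeR), on 2554 and 15 UMIs in the control and stress IL-1R1+/+ pools against 0 and 1 UMI in the nIL-1R1-/- pools. With so few counts the size of the difference is not known, and the fitted log2 value ran from -11.41 to -2.55 as single pools were left out. That class held 1545 nuclei in Con-IL-1R1+/+ and 21 in Con-nIL-1R1-/-, and how these nuclei came into the pools cannot be told apart from genotype; without Con-IL-1R1+/+ or Con-nIL-1R1-/- the adjusted p was 0.266 or 0.43.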

How the data were processed

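The 8 pools were barcoded together (Parse Biosciences) and spread over sublibraries, of which the labels give 4 and the study's methods name more, and the condition named beside every barcode in the deposited tables assigned nuclei to pools. The authors deposited whole-number UMI counts for genes in single nuclei, aligned to mm39 by Parse's own pipeline; the pipeline version and gene annotation release are not given in the sources used here, nor whether strand was used, so overlapping genes may share reads. The submitters' processing notes also name Seurat 4.1.1. Of 56748 identifiers, 56017 were in GENCODE vM39, which gave the GRCm39 coordinates of all 37 members.

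Nuclei over 20% mitochondrial UMIs were left out. Leiden clustering (resolution 1.0) used 30 principal components of log-normalized counts of 2000 variable genes, without 105 member and pathway genes (scanpy 1.11.5, igraph 0.11.9, Python 3.11.15). Clusters were named from fixed markers by a rule that was adjusted after cluster tables, but no comparison of groups, had been seen; 7163 nuclei stayed unnamed. Doublets were not removed in the main analysis; Scrublet's top 5% per pool were left out as an alternative. CPM scales the UMIs of a class and pool to a sum of 1000000. Classes with at least 20 nuclei in every pool were tested with edgeR 4.0.16 (TMM, filterByExpr, quasi-likelihood; R 4.3.3); DESeq2 1.42.0 was an alternative. On simulated data with 200 genes changed by a fold of 2, the stress test found 86.5% in CA1-like (12649 genes) and 67.0% in oligodendrocyte-like nuclei (6024 genes). It also made 8 and 3 false calls. The simulation had a single fixed dispersion and no pair effects, and changed only better-counted genes. These shares therefore do not give the power for the members, many of which are sparser. The study tested nuclei as replicates, which was not done here. Pairs are set by the design: both pools share a diet or genotype. Deviations of paired pools correlated with r from -0.02 to 0.42 (median 0.12; 35 of 56 values over 0.1). Each pool is 1 library sample of 3 mice, and no condition has a second pool. The p-values of the main fit therefore rest on how the stress difference varied between the 4 pairs, which differ in diet, genotype or experiment. They also rest on spread borrowed across genes, because the quasi-likelihood fit draws each gene's dispersion toward that of the other genes of the class. A p-value is thus not a measure of the variation of that gene between the 4 pairs alone. Poisson and binomial intervals (scipy 1.17.1) cover counting error only.

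The members and lists were chosen with earlier results of these data known. Values per pool are given for members with at least 200 UMIs in the class where they are highest (Wnt5b, Wnt2, Wnt5a, Fzd6 and Fzd3), and for genes called; other values by pool (Dkk3, Fzd4, Il1r1, and Wnt5b by cluster) were chosen after the values were seen. Alternatives were other normalization, filters, thinning to 500 UMIs, Leiden 2.0, and leaving out pools or pairs.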

Additional observations from a re-analysis of the deposited data

Results flagged for a closer look

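In 4 of 60 groups of 4 pools looked at, 1 pool lay far from the other 3; chance alone flags about 1 group in 20. Fzd4 in endothelial-like nuclei was at 191 CPM in Con-PLX, on 20 nuclei and 3 UMIs, against 35.1 to 42.1 CPM in the other control pools. Dkk3 in DG-like nuclei was at 16.2 CPM in Con-PLX against 7.62 to 8.59 in the other control pools. Stress-Veh stood out for 2 genes: Dkk3 in INH-like nuclei was at 36.2 CPM against 19.2 to 20.9 in the other stress pools, and Wnt5b in the Gna14-led cluster was at 65.6 CPM against 43.3 to 47.1.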

How the results depend on the processing

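Members called for diet and for both interactions stayed at 0 under every alternative run. For stress, 1 member was called without the PLX5622 pair (Wnt5b in Arhgap25-led nuclei; 0 to 1 over the 4 pairs left out), 1 in the genotype experiment alone (Wnt5b in INH-like nuclei, adjusted p = 0.0439 by edgeR) and 1 when clusters were tested one by one, and 0 without the replicate block. For genotype, no member was called under any alternative that kept both pools of each genotype. Without Stress-IL-1R1+/+, Wnt2 in CA1-like nuclei had a log2 fold change of -1.83, with Con-IL-1R1+/+ as the only IL-1R1+/+ pool. A steady highest class was found for 4 members, and for 1 with nuclei thinned to 500 UMIs, where 11 members still had 50 UMIs. Dkk3 in cortical and subicular excitatory-like nuclei changed sign at Leiden 2.0 (log2 fold change 0.46, adjusted p = 0.127 by edgeR), but the class of that name then also took in an Arhgap25-led cluster of 2314 nuclei beside 1242 others, against 1248 nuclei before, so the values are of different nuclei. Wnt5b in the Vip-led cluster kept its direction in 13 of 13 alternatives, from 0.76 to 1.21, and its call in 8. All 13 kept the same clusters, so the boundary of the Vip-led cluster was not varied. At Leiden 2.0 the INH-like nuclei held a Frem1-led cluster of 945 nuclei, with Npas1 and Adarb2 among its leading genes, and a Vip-led cluster of 603. Wnt5b was not tested in these clusters. Without TMM the median of all genes shifted by up to 0.19 for the interaction with diet, and by more than 0.1 elsewhere only for genotype in Ebf2-led nuclei (-0.10). Thinning left 12 tests of members for stress. Without the replicate block, the calls of Rspo2 in Igfn1-led nuclei and Daam2 in astrocyte-like nuclei were lost (adjusted p = 0.39 and 0.223 by edgeR). Rspo2 in Arhgap25-led nuclei kept its call in 12 of 13 alternatives and lost it in the diet experiment alone (adjusted p = 0.162).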
